A study of Mus musculus with 10 samples.

Results

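Expression of 10 genes that mark hepatic stellate cells or encode collagen and other extracellular matrix was followed in the livers of mice from reciprocal crosses and of the parental strains. The members were given as a list of gene symbols (Col1a1, Col1a2, Col3a1, Col4a1, Col4a2, Acta2, Timp1, Lum, Des and Lrat), found by Ensembl identifier among the 41388 genes of the count and RPKM tables, and all 10 were present. Hepatic stellate cells lie between the sinusoidal endothelium and the hepatocytes, where they store vitamin A as retinyl esters made by Lrat and carry the intermediate filament desmin. When activated in injured liver, they lose their retinoid stores, take on contractile proteins such as smooth muscle actin, and secrete fibrillar collagens and Timp1, an inhibitor of the proteases that degrade matrix. Type IV collagen belongs to basement membranes and is also made by endothelial cells, so that its transcripts do not belong to stellate cells alone.

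The 10 livers came from animals 10 weeks old. BFMI is the inbred Berlin Fat Mouse line BFMI860-12/Hber, which becomes obese early in life, and B6N is the lean strain C57BL/6NCrl. A BFMI mother and a B6N father gave the matBFMI group (3 F1 males), and a B6N mother and a BFMI father gave the patBFMI group (3 F1 males). Within each cross the 3 males had 3 different mothers, and all 6 ate a high fat diet from day 21 to day 70. Each strain contributed 1 male and 1 female, whose diet is given as standard breeding diet in the sample records but as high fat diet in the series design and the paper, and if the records hold, diet cannot be told apart from the contrast of F1 with inbred animals. Reads assigned to genes numbered 51080161 to 58955349 per F1 library and 46988713 to 96023811 per inbred library, the BFMI male being the deepest. The library patBFMI 1 stood apart from the other F1 libraries, with a count in 32421 genes against 22095 to 26694 genes in the other 5. The inbred libraries had a count in 29942 to 34572 genes, so that patBFMI 1 lay within their range and the other 5 F1 libraries below it. The part of this difference in the contrast of F1 with inbred animals was not tested. Lane 6 carried every matBFMI library and lane 5 every patBFMI library, and an effect of the lane cannot be told apart from one of the cross. The BFMI male was run on lane 1 and the other 3 inbred animals on lane 4. An effect of the lane can therefore not be told apart from the contrast of F1 with inbred animals either. In whole liver, fewer cells of a type and less RNA per cell cannot be told apart.

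Col4a1 and Col4a2, 2 chains of type IV collagen, are encoded head to head on chromosome 8 (GRCm38). Col4a1 occupies 11198423 to 11312826 on the minus strand and Col4a2 occupies 11312805 to 11449287 on the plus strand, so that their first exons share 22 bases. The windows from 250 bases before to 50 bases after each RefSeq start site (GRCm38.p6) are shown because both genes moved between the strains and their start regions overlap by 78 bases. The capitals mark the 22 shared exon bases, which read as reverse complements because each window is printed 5′ to 3′ on the strand of its gene.
Col4a1, chr8:11312777-11313076, minus strand: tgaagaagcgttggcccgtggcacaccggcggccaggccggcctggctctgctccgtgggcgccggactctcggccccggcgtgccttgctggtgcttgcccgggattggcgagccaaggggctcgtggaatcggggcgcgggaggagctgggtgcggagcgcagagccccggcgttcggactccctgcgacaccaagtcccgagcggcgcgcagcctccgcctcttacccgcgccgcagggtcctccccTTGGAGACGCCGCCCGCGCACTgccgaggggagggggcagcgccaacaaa
Col4a2, chr8:11312555-11312854, plus strand: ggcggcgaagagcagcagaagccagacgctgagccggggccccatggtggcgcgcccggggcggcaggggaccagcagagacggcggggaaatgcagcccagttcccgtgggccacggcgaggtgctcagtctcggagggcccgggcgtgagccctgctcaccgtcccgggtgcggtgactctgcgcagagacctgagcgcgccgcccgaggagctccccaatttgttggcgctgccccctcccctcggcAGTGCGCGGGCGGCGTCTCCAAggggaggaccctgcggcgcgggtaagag
The fibrillar collagen genes lie on other chromosomes, and the windows of Col1a2 and Col3a1 are shown to set their start regions beside those of the type IV pair. In Col1a2 the capitals mark GC boxes (GGGCGG) and CCAAT boxes (CCAAT) on either strand. In Col3a1 they mark a match to the TATA box motif (TATAAA), which lies far upstream of the start site.
Col1a2, chr6:4505368-4505667, plus strand: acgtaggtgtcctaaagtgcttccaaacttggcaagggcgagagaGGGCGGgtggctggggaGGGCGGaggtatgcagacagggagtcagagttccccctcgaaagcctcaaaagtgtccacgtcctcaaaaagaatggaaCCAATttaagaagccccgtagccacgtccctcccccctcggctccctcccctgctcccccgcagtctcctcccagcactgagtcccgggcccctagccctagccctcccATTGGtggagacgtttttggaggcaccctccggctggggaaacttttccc
Col3a1, chr1:45311288-45311587, plus strand: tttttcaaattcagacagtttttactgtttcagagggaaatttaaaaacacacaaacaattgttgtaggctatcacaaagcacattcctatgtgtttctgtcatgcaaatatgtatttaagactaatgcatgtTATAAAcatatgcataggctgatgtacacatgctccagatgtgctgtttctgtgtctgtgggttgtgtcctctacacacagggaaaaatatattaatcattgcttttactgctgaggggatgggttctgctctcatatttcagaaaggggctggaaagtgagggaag
RefSeq windows were found for 8 of the 10 members, all but Col1a1 and Lum. A GC box was present in 6 of these 8 windows and in 35.9% of 32544 promoter windows of the same length, and a CCAAT box in 5 of 8 and in 37.4%. The TATA box motif was present in 1 of 8, that of Col3a1, and in 13.6% of all windows. No motif contains another, both strands were searched, and such a match describes the window only.

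Levels of different genes can be compared only per length, for which the deposited RPKM was used. Over the 10 libraries Col4a1 had the highest median (8.07 RPKM, 5.79 to 12.0). It was followed by the retinyl ester synthase Lrat (5.42 RPKM, 3.92 to 8.44), Col3a1 (4.70 RPKM, 3.35 to 11.5), the small matrix proteoglycan Lum (4.26 RPKM, 1.73 to 7.25) and Col4a2 (4.19 RPKM, 2.88 to 7.59). Acta2, smooth muscle actin, had a median of 2.05 RPKM (0.956 to 5.11), Col1a2 of 1.07 RPKM (0.875 to 2.12), desmin (Des) of 0.911 RPKM (0.370 to 1.56) and Col1a1 of 0.722 RPKM (0.438 to 2.38). Timp1 was lowest, with a median of 0.161 RPKM and a range from 0 to 2.76. The ranges of each pair of neighbours in this order overlapped, so that the order from one gene to the next is not fixed beyond the spread between libraries. All further levels are given as CPM, raw counts scaled to the size of each library after TMM correction, which compare 1 gene between libraries. The deposited RPKM ranked the F1 libraries differently from CPM, and the highest F1 library was another one for Col4a1, Col4a2, Acta2, Lum, Des and Lrat. Col1a1 in patBFMI 1 was lowest of the 6 by CPM (2.52), whereas its RPKM of 0.740 lay above those of patBFMI 2 (0.499), patBFMI 3 (0.444), matBFMI 2 (0.447) and matBFMI 3 (0.438).

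**Figure D1:**
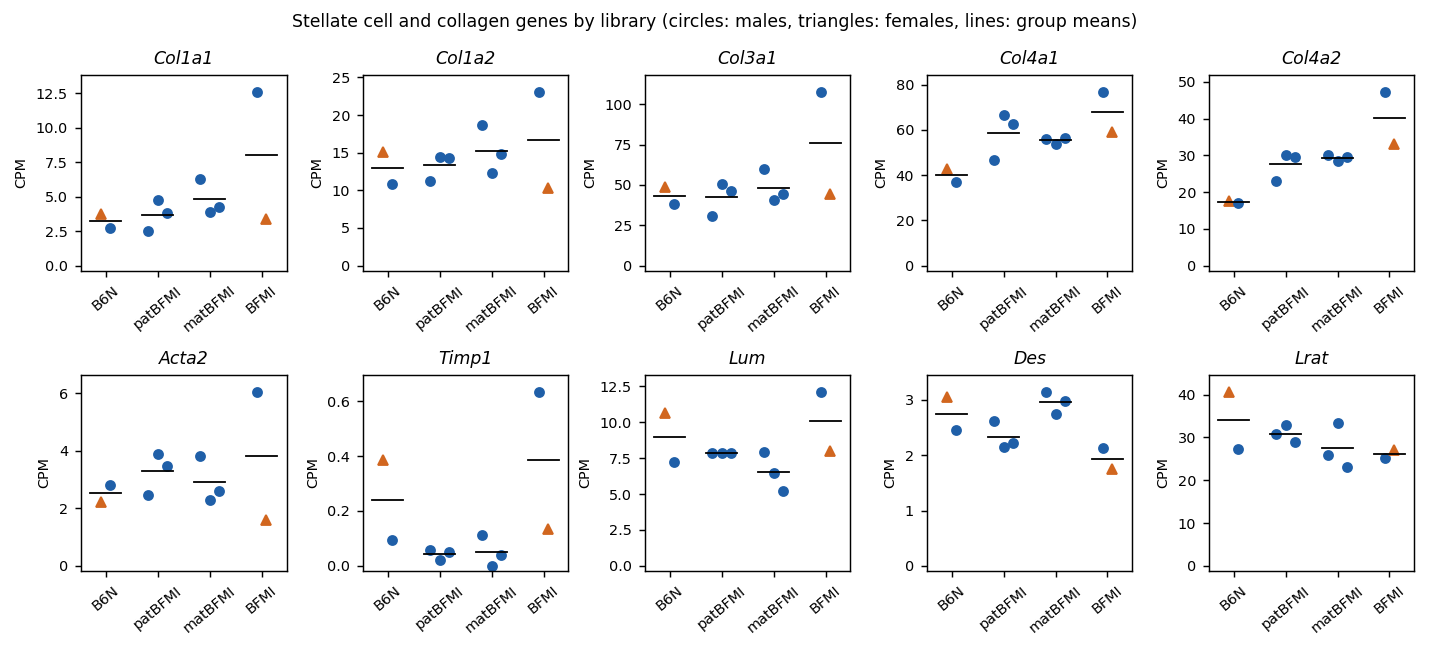
CPM of each gene in the 10 liver libraries, with 1 panel per gene and its own axis from 0; circles are males, triangles are females and lines are group means. The BFMI male is the highest point in 8 panels, all but Des and Lrat, and the Col4a2 panel has both BFMI points above all 6 F1 points and both B6N points below them.

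The direction of cross was examined first, because the study asked whether F1 males of BFMI mothers and of BFMI fathers differ in the liver. No member passed the test between matBFMI and patBFMI males. Of the 9 tested, 0 passed an adjusted p of 0.05 in the quasi-likelihood test of edgeR, 0 had an unadjusted p under 0.05 and 0 passed in DESeq2. Over all 16797 genes tested the adjusted threshold was passed by 0.143%, and 9.85% had an unadjusted p under 0.05. Of the 9 log2 fold changes of matBFMI over patBFMI 5 were positive, and their median was 0.07 beside -0.01 over all genes tested. Timp1 had too few reads to be tested here. Variation between F1 males was a biological coefficient of variation of 15.9% over all genes.

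The fibrillar collagens of types I and III overlapped between the crosses. Col1a1, the alpha 1 chain of type I collagen (chromosome 11, 94936224 to 94953042), was at 6.28, 3.91 and 4.25 CPM in matBFMI 1 to 3 and at 2.52, 4.78 and 3.79 CPM in patBFMI 1 to 3. The highest and the lowest F1 values belonged to matBFMI 1 and patBFMI 1, and the remaining 4 animals interleaved (log2 fold change 0.37, standard error 0.247, adjusted p = 0.662, edgeR). Col1a2, which joins Col1a1 in the type I triple helix (chromosome 6, 4504814 to 4541544), was at 18.7, 12.3 and 14.9 CPM in matBFMI and at 11.3, 14.4 and 14.3 CPM in patBFMI. Col3a1, the type III chain (chromosome 1, 45311538 to 45349706), was at 59.7, 40.6 and 44.7 CPM in matBFMI and at 30.8, 50.8 and 46.5 CPM in patBFMI. In all 3 genes matBFMI 1 was the highest and patBFMI 1 the lowest of the F1 males. The log2 fold change was 0.19 for Col1a2 (standard error 0.155, adjusted p = 0.747, edgeR) and 0.17 for Col3a1 (standard error 0.195, adjusted p = 0.826, edgeR). Leaving out 1 library at a time moved it between 0.14 and 0.59 for Col1a1, between 0.02 and 0.32 for Col1a2 and between -0.01 and 0.31 for Col3a1.

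The type IV chains Col4a1 and Col4a2 overlapped between the crosses as well. Col4a1 was at 56.2, 53.9 and 56.6 CPM in matBFMI and at 46.8, 66.4 and 62.5 CPM in patBFMI, where the 3 matBFMI animals lay close together inside the wider range of patBFMI. Col4a2 was at 30.1, 28.5 and 29.5 CPM in matBFMI and at 23.1, 30.2 and 29.7 CPM in patBFMI, with patBFMI 1 as the only library set apart. Log2 fold changes were -0.09 for Col4a1 (standard error 0.123, adjusted p = 0.865, edgeR) and 0.07 for Col4a2 (standard error 0.103, adjusted p = 0.862, edgeR).

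Of the remaining genes Des alone had separate groups. Desmin, the muscle type intermediate filament of stellate cells (chromosome 1, 75360329 to 75368579), was at 3.14, 2.74 and 2.99 CPM in matBFMI and at 2.62, 2.16 and 2.22 CPM in patBFMI. All 3 matBFMI males lay above all 3 patBFMI males (log2 fold change 0.33, standard error 0.151, adjusted p = 0.532, edgeR). The difference did not pass, and groups did not overlap in 15.3% of all genes tested. In the deposited RPKM the groups overlapped, at 0.975, 0.556 and 0.527 in matBFMI and at 1.32, 0.370 and 0.451 in patBFMI with patBFMI 1 highest, and limma on log2 RPKM gave 0.0081 and 0.088 at pseudocounts of 1 and 0.1. These counts were 101 to 168 reads per F1 library. Acta2 (chromosome 19, 34241090 to 34255590), the marker of activated stellate cells and smooth muscle, was at 3.81, 2.28 and 2.61 CPM in matBFMI and at 2.48, 3.91 and 3.49 CPM in patBFMI, with overlapping groups (log2 fold change -0.19, standard error 0.229, adjusted p = 0.834, edgeR). Lum, which binds collagen fibrils (chromosome 10, 97565128 to 97572703), was at 7.93, 6.46 and 5.18 CPM in matBFMI and at 7.87, 7.85 and 7.87 CPM in patBFMI. The 3 patBFMI values were nearly equal and only matBFMI 1 reached them (log2 fold change -0.28, standard error 0.150, adjusted p = 0.584, edgeR). Lrat (chromosome 3, 82892579 to 82903973) was at 25.9, 33.5 and 23.1 CPM in matBFMI and at 30.8, 32.8 and 29.0 CPM in patBFMI, and here matBFMI 2 was the highest F1 male (log2 fold change -0.18, standard error 0.134, adjusted p = 0.712, edgeR). Timp1, on the X chromosome (20870166 to 20874735), had 6, 0 and 2 reads in matBFMI and 3, 1 and 3 reads in patBFMI. In matBFMI 2 the absence of reads allows a level of up to 0.0531 CPM before TMM scaling, a floor of 3 counts that covers counting error only, and at this depth no difference in Timp1 between the crosses was detectable.

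**Figure D2:**
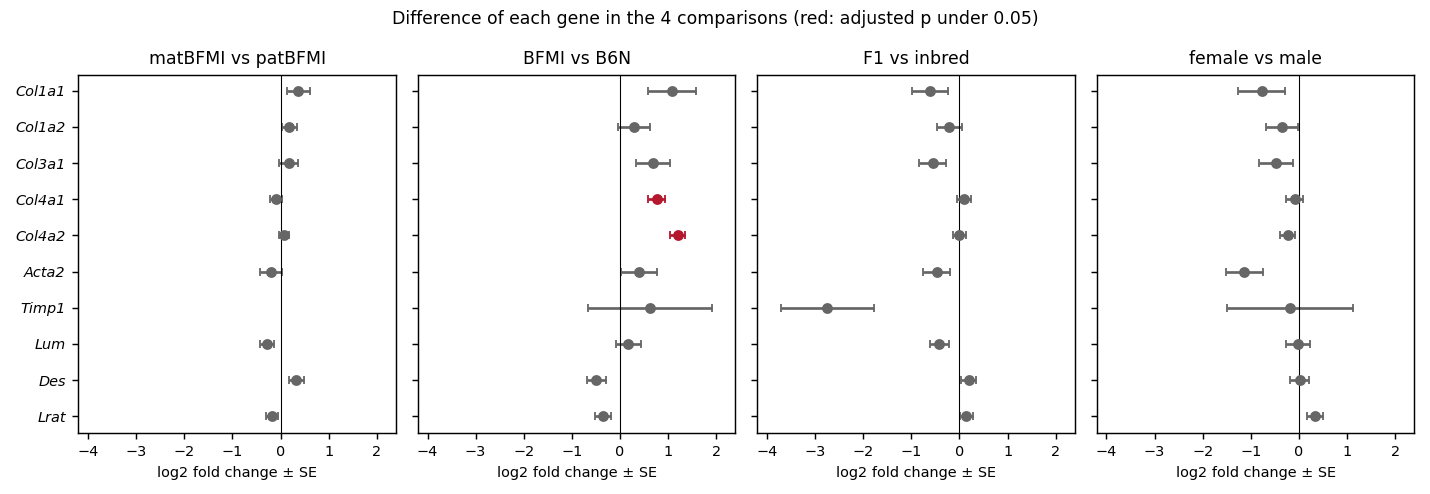
Log2 fold change with its standard error for each gene in the 4 comparisons (first group over second), fitted by edgeR. The red points, Col4a1 at 0.76 and Col4a2 at 1.20 in BFMI against B6N, are those with an adjusted p under 0.05, and Timp1 is absent from the first panel because it was not tested there.

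Col4a1 and Col4a2 of type IV collagen separated the parental strains. The obese line was compared with the lean strain by a fit of all 10 libraries with a term for sex. Of the 10 members 2 passed at an adjusted p of 0.05, Col4a1 and Col4a2, both higher in BFMI, where 6.67% of 19974 genes tested were called and 3.61% were called higher. The median log2 fold change of BFMI over B6N was 0.50 over the members beside -0.04 over all genes tested, and 8 of 10 were positive. The 2 animals of each strain differ in sex, so that most of the spread in this fit comes from the F1 males.

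Col4a2 was at 47.3 CPM in the BFMI male, 33.2 CPM in the BFMI female, 17.6 CPM in the B6N female and 17.03 CPM in the B6N male. Both BFMI animals exceeded both B6N animals, the log2 fold change being 1.20 (standard error 0.163, adjusted p = 0.00165, edgeR). The call remained under every alternative that kept both animals of each strain. Without the BFMI male or without the B6N male the fit reduces to the female of each strain, because the other male sets the sex term. The log2 fold change was 0.94 and 0.91 in these runs, which are in effect the same contrast of 1 animal against 1. All 6 F1 males, at 23.1 to 30.2 CPM, lay between the lowest BFMI and the highest B6N value. Of the members Col4a2 alone showed this intermediate order, which 2.53% of all genes tested showed. Col4a1 was at 76.8 and 59.1 CPM in the BFMI male and female and at 42.6 and 37.0 CPM in the B6N female and male. The strains did not overlap (log2 fold change 0.76, standard error 0.181, adjusted p = 0.0323, edgeR), and F1 males at 46.8 to 66.4 CPM reached into the BFMI range. The Col4a1 call was lost without matBFMI 2 (adjusted p = 0.0520, edgeR) and with limma on RPKM (adjusted p = 0.153 and 0.164). It was also lost without the BFMI male (log2 fold change 0.50) or the B6N male (0.47), where again only the females are compared.

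The relative amount of the 2 chains, which assemble into 1 heterotrimer, was then set out as the share of Col4a2 among the reads of both genes, a measure chosen after the values had been seen. It was 38.1% in the BFMI male (95% exact binomial interval 37.3 to 39.0) and 36.0% in the BFMI female (34.6 to 37.4), against 29.3% in the B6N female (27.6 to 30.9) and 31.5% in the B6N male (29.8 to 33.2). The matBFMI males had 34.9, 34.5 and 34.2% and the patBFMI males 33.1, 31.3 and 32.2%. The intervals cover counting error only, not variation between animals. Neither the strains nor the crosses overlapped. The share was 34.6 ± 0.326% in matBFMI and 32.2 ± 0.887% in patBFMI (SD, n = 3 each), a difference of 2.39 percentage points with an exact two-sided permutation p of 0.1, which is the smallest that 3 against 3 animals can give. Between the strains the difference was 6.67 points with an exact permutation p of 0.333, again the smallest possible with 2 against 2 animals. Only 22 exon bases are shared by the genes, and another 43 exon bases of Col4a2 lie opposite the antisense gene Gm15419. Whether the counting used strand is not given in the sources used here.

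**Figure D3:**
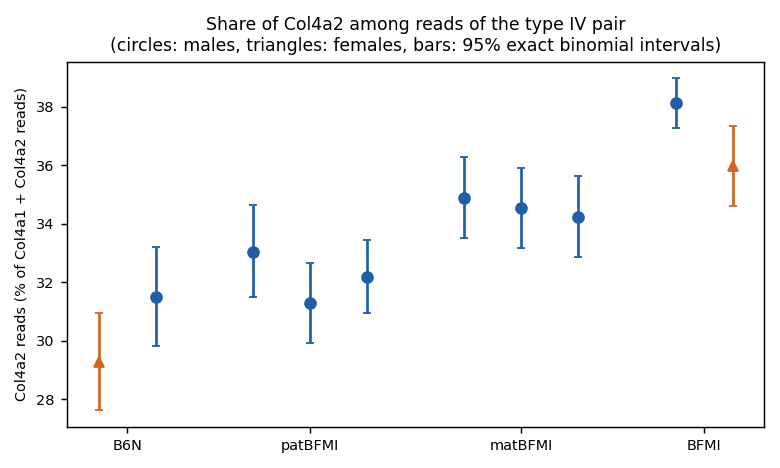
Share of Col4a2 among the reads of Col4a1 and Col4a2 in each library, in percent, with 95% exact binomial intervals that cover counting error only; the vertical axis does not start at 0. From left to right the B6N animals (29.3 and 31.5%), patBFMI (31.3 to 33.1%), matBFMI (34.2 to 34.9%) and BFMI (36.0 and 38.1%) are shown, with males as circles and females as triangles.

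The fibrillar collagens differed widely between the 2 BFMI animals. Col1a1 was at 12.6 CPM in the BFMI male and at 3.38 CPM in the BFMI female, against 3.74 CPM in the B6N female and 2.70 CPM in the B6N male. The BFMI male held 2.01 times as much as the next highest library of the series, while the BFMI female lay below the B6N female (log2 fold change 1.08, standard error 0.497, adjusted p = 0.288, edgeR). Col3a1 was at 107.8 CPM in the BFMI male and at 44.1, 48.5 and 38.2 CPM in the BFMI female, B6N female and B6N male. For this gene the BFMI male held 1.80 times the next highest library (log2 fold change 0.68, standard error 0.359, adjusted p = 0.371, edgeR). Col1a2 was at 23.1 CPM in the BFMI male and at 10.4, 15.0 and 10.8 CPM in the same order, with the BFMI female lowest of all 10 libraries (log2 fold change 0.29, standard error 0.327, adjusted p = 0.765, edgeR). Col1a1 and Col3a1 passed when only the 4 inbred libraries were fitted (adjusted p = 0.00131 and 0.0201, edgeR). With terms for each strain and for sex, that fit takes its spread mostly from other genes, not from variation between animals. Without the BFMI female or without the B6N female the fit reduces to the male of each strain. The log2 fold change of Col1a1 was then 2.224 and 2.221. Without the BFMI male the fit reduces to the female of each strain, and the log2 fold changes were -0.12 for Col1a1, -0.51 for Col1a2 and -0.11 for Col3a1.

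Acta2 and Timp1, which accompany fibrillar collagen in activated stellate cells, had the same order of libraries within BFMI. Acta2 was at 6.04 CPM in the BFMI male, the highest of all libraries, and at 1.61 CPM in the BFMI female, the lowest, with 2.24 CPM in the B6N female and 2.81 CPM in the B6N male. The strains overlapped, with the log2 fold change at 0.39 (standard error 0.375, adjusted p = 0.709, edgeR). Parts of the Acta2 transcript are 85.4% identical to Acta1 over 1133 bases, so that some reads may have been placed between these actins. Timp1 had 64 reads in the BFMI male, 7 in the BFMI female, 19 in the B6N female and 5 in the B6N male, or 0.633, 0.136, 0.386 and 0.0924 CPM (log2 fold change 0.62, standard error 1.30, adjusted p = 0.886, edgeR). Lum was at 12.1 CPM in the BFMI male and at 8.02, 10.7 and 7.21 CPM in the BFMI female, B6N female and B6N male, with overlapping strains (log2 fold change 0.17, standard error 0.255, adjusted p = 0.830, edgeR).

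Des and Lrat, the filament and the retinoid enzyme of stellate cells, had the opposite sign. Des was at 2.13 and 1.75 CPM in the BFMI male and female and at 3.05 and 2.46 CPM in the B6N female and male (log2 fold change -0.50, standard error 0.197, adjusted p = 0.200, edgeR). Lrat was at 25.1 and 27.0 CPM in the BFMI male and female and at 40.6 and 27.4 CPM in the B6N female and male (log2 fold change -0.35, standard error 0.175, adjusted p = 0.334, edgeR). Strains did not overlap for these 2 genes and for the type IV pair, 4 of 10 members beside 43.8% of all genes tested, and neither Des nor Lrat passed. By RPKM the strains overlapped for Des, at 1.26 and 0.847 in BFMI and at 1.56 and 1.15 in B6N. Of the exon bases of Des 5.86% lie opposite the antisense gene Gm15179. For Lrat the BFMI female and the B6N male were almost equal and the B6N female stood above the rest.

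Within each sex the strain ratio rests on 1 animal against 1 and has no replicate check. These ratios are in effect the same contrasts as the strain fits with 1 inbred animal left out, and add no separate evidence. In males the log2 ratio of BFMI over B6N was positive for 8 of the members, at 2.22 for Col1a1, 1.497 for Col3a1, 1.47 for Col4a2, 1.10 for Acta2, 1.09 for Col1a2, 1.05 for Col4a1 and 0.75 for Lum, and Timp1 was at 2.77 on few reads. In females it was positive for 2, Col4a2 at 0.91 and Col4a1 at 0.47. The other fibrillar and stellate genes were below 0 in females, among them Col1a1 at -0.15, Col3a1 at -0.13, Col1a2 at -0.54 and Acta2 at -0.47. The median over the members was 1.10 in males and -0.44 in females, beside 0.02 and -0.05 over all genes tested. Des (-0.21 in males, -0.80 in females) and Lrat (-0.12 and -0.59) were below 0 in both sexes. A fit with a term for the difference between these ratios was chosen after the values had been seen and takes its spread from the F1 males only. Of 10 members 0 passed the adjusted threshold (0.03% of all genes tested did, and the lowest adjusted p of a member was 0.314, edgeR), and 5 had an unadjusted p under 0.05 beside 7.87% of all genes tested.

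**Figure D4:**
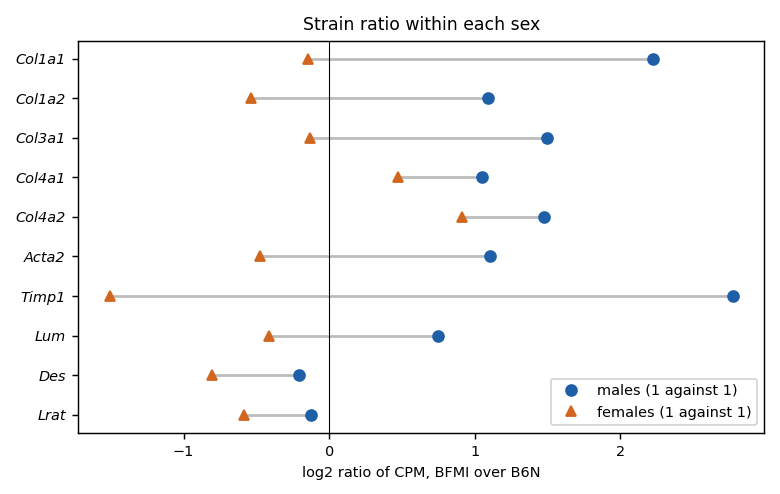
Log2 ratio of CPM in BFMI over B6N for each gene, with males as circles and females as triangles, 1 animal against 1 in each. The type IV pair lies to the right of 0 in both sexes, Des and Lrat lie to the left in both, and the other 6 genes lie to the right in males and to the left in females.

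The BFMI male was the highest of all 10 libraries for 8 of the 10 members, a count made after the values had been seen, and 10.9% of all genes tested were highest there. It was also highest for 9 of 12 contractile and cytoskeletal genes, 11 of 27 other matrix proteins, 7 of 17 matrix proteases and inhibitors and 7 of 20 other collagen chains. Of 21 genes of collagen folding and crosslinking it was highest for 3, or 14.3%. Among 18 other markers of stellate cells, such as Reln and Rgs5, it was highest for 2. Of the markers of bile duct cells (cholangiocytes) 4 of 9 were highest in the same animal. The summed level of all 10 listed genes was 59.8 CPM there, against 24.2 to 35.3 CPM in the other libraries. Most of that sum was the osteopontin gene Spp1, at 49.96 CPM in the BFMI male and at 17.4 to 26.6 CPM elsewhere. The contractile genes summed to 100.2 CPM in the BFMI male and to 63.3 to 76.5 CPM elsewhere. Markers of portal fibroblasts and mesothelium, which also make collagen, were highest in that animal for 3 of 11, and their sum was 49.1 CPM there within a range of 26.3 to 66.8 CPM elsewhere. Of the 10 hepatocyte, 15 Kupffer cell and 10 lymphocyte markers 0 were highest there, and sinusoidal endothelium gave 2 of 14. Red cell genes were highest there for 4 of 6, and summed to 919.7 and 733.6 CPM in the BFMI animals against 225.5 to 601.6 CPM elsewhere. No listed marker was at 0 in all libraries. The part of these cell types, and of the greater depth and separate lane of this library, in the levels of the collagens was not tested.

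**Figure D5:**
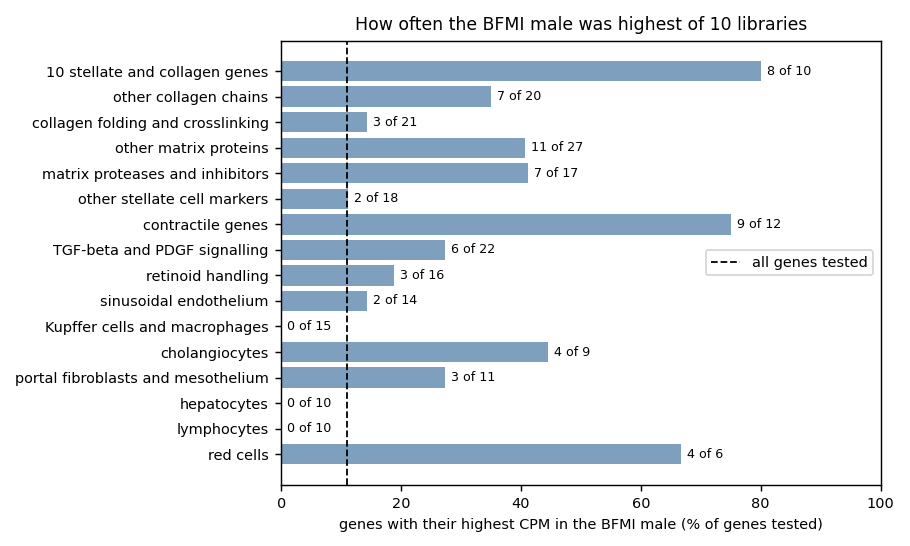
Percent of the genes tested in each list whose highest CPM over 10 libraries was in the BFMI male, with the count beside each bar, and the dashed line at 10.9% for all genes tested. The 10 stellate and collagen genes (8 of 10) and the contractile genes (9 of 12) have the longest bars, whereas Kupffer cell, hepatocyte and lymphocyte lists are at 0.

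The genes whose profile lay nearest to that of the fibrillar collagens were sought over the 10 libraries. The measure was the root mean square difference of centred log2 CPM from the mean profile of Col1a1, Col1a2 and Col3a1. Each of these genes was highest in the BFMI male, so that a high value in this 1 library weighs heavily on the ranks. The nearest of 19971 genes were Hipk2, a protein kinase (0.200), Loxl2, which crosslinks collagen (0.204), Emp1, a membrane protein (0.208), Kmt5a, a histone methyltransferase (0.214), and Slc25a23, a mitochondrial carrier (0.215), where a flat gene would be at 0.443 and the median gene was at 0.488. Loxl2 was at 5.91 CPM in the BFMI male and at 2.22 to 3.32 CPM in all others. Of the remaining members Acta2 ranked at 39 (0.271), Col4a1 at 192, Timp1 at 247, Col4a2 at 282 and Lum at 929, whereas Des ranked at 11387 and Lrat at 15808. Timp1 was at 0 to 0.633 CPM, where the prior of 0.5 flattens its profile.

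Between F1 males and inbred animals no member passed the test, with 0 of 10 called in edgeR (2.05% of all genes tested) and 0 of 10 with separate groups (5.83% of all genes tested). An unadjusted p under 0.05 was found for 1 member, Timp1, beside 16.6% of all genes tested, and 0 passed in DESeq2. This comparison shares the inbred libraries with the comparison of the strains and is adjusted for sex. Its sex term rests on the inbred libraries alone, since all F1 animals were male. The log2 fold changes therefore set the F1 males, in effect, against the mean level of the BFMI male and the B6N male. The inbred females enter only through the spread. No lane held both F1 and inbred libraries, so that an effect of the lane cannot be told apart from this contrast. Timp1 had 8 and 7 reads in all 3 libraries of matBFMI and of patBFMI, against 71 in the 2 BFMI and 24 in the 2 B6N libraries (log2 fold change -2.74, standard error 0.970, adjusted p = 0.192, edgeR). The highest F1 value, 0.112 CPM in matBFMI 1, exceeded the 0.0924 CPM of the B6N male. Col1a1 (-0.61), Col3a1 (-0.56), Acta2 (-0.48), Lum (-0.42) and Col1a2 (-0.21) had negative log2 fold changes that did not pass, and Des (0.19), Lrat (0.15), Col4a1 (0.09) and Col4a2 (-0.00) were nearer to 0. The median was -0.31 over the members beside 0.01 over all genes tested.

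Between female and male inbred animals 0 of 10 members passed (0.556% of all genes tested) in edgeR. Acta2 was the only member with an unadjusted p under 0.05, beside 7.80% of all genes tested, and the only one whose sexes did not overlap among the inbred animals, beside 25.1%. It was at 1.61 and 2.24 CPM in the 2 females and at 6.04 and 2.81 CPM in the 2 males (log2 fold change -1.13, standard error 0.377, adjusted p = 0.369, edgeR). Acta2 passed when only the 4 inbred libraries were fitted (adjusted p = 0.00554, edgeR), a fit that takes its spread mostly from other genes. The log2 fold changes of the others ran from -0.78 for Col1a1 to 0.33 for Lrat, with a median over the members of -0.21 beside 0.03 over all genes tested. 0 members passed in DESeq2.

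Other genes of matrix and stellate cell biology were followed in lists. Between the crosses 0 genes of any list passed, edgeR calling 0 of 19 other collagen chains, 0 of 27 other matrix proteins and 0 of 18 other stellate cell markers, of which 2, 0 and 2 had an unadjusted p under 0.05. DESeq2 also called 0 in these 3 lists, and 1 gene each of TGF-beta and PDGF signalling, sinusoidal endothelium and hepatocytes (lower) and of portal fibroblasts and mesothelium (higher). In the same libraries the 15 macrophage markers, of which 10 were lower at an unadjusted p under 0.05 beside 9.85% of all genes in either direction, summed to 273.5 to 308.0 CPM in matBFMI and to 337.6 to 358.0 CPM in patBFMI. The 10 lymphocyte markers summed to 12.4 to 16.1 CPM in matBFMI and to 16.3 to 20.8 CPM in patBFMI, and of 6 tested 2 were lower at an unadjusted p under 0.05. The part of both cell types in the values of the members was not tested. Between the strains 2 of 20 other collagen chains were higher in BFMI and 1 was lower. The type IV chains Col4a3, Col4a4, Col4a5 and Col4a6 belong to this list, and none of them passed in edgeR. Col15a1, of the basement membrane zone, was at 7.45 and 5.07 CPM in the BFMI male and female and at 3.29 and 3.16 CPM in the B6N female and male (log2 fold change 0.94, adjusted p = 0.0291, edgeR). Col27a1 was at 24.7 and 8.29 CPM in BFMI and at 4.31 and 14.0 CPM in B6N in the same order, so that the strains overlapped and the higher value in each belonged to the male. Its log2 fold change was 0.88 between the strains (adjusted p = 0.0326, edgeR) and -1.63 between females and males (adjusted p = 0.0111, edgeR). Col5a3 was also lower in females (-1.98, adjusted p = 0.00574, edgeR), and transmembrane Col13a1 was lower in BFMI (-0.55, adjusted p = 0.0469, edgeR) and higher in F1 males than in inbred animals (0.78, adjusted p = 0.0141, edgeR).

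Of 27 other matrix proteins 2 were higher and 2 were lower in BFMI. Sparc, a matrix glycoprotein that binds collagen IV, was at 76.8 and 63.4 CPM in the BFMI male and female and at 40.2 and 32.8 CPM in the B6N female and male (log2 fold change 0.94, standard error 0.154, adjusted p = 0.00482, edgeR). The F1 males lay between, at 42.4 to 53.2 CPM, as they did for Col4a2. Periostin (Postn) was higher (0.81, adjusted p = 0.0491, edgeR), whereas the basement membrane nidogen Nid2 (-0.77, adjusted p = 0.0418, edgeR) and fibromodulin (Fmod, -1.73, adjusted p = 0.0455, edgeR) were lower. Among 21 genes of collagen folding and crosslinking 0 were higher and 2 were lower, Pcolce2, an enhancer of procollagen processing (-1.36, adjusted p = 0.00156, edgeR), and the collagen galactosyltransferase Colgalt1 (-0.56, adjusted p = 0.0132, edgeR). Of 17 matrix proteases and inhibitors 0 passed in edgeR or DESeq2. An unadjusted p under 0.05 was found for 3 of them in edgeR, beside 18.3% of all genes tested.

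Of 18 other stellate cell markers Rgs5, a regulator of G protein signalling in pericytes, was the 1 called, with 114.7 and 109.4 CPM in the BFMI male and female and 75.0 and 56.1 CPM in the B6N female and male (log2 fold change 0.79, standard error 0.155, adjusted p = 0.0133, edgeR). The median of this list was -0.23 beside -0.04 over all genes tested, and 4 of 18 were positive, so that the list of stellate markers did not share the sign of the members' median of 0.50. Of 12 contractile genes Tpm1 was higher (0.49, adjusted p = 0.0291, edgeR). Among 22 genes of TGF-beta and PDGF signalling the growth factor Pdgfa was higher (0.93, adjusted p = 0.0287, edgeR) and Pdgfd was lower (-0.75, adjusted p = 0.0334, edgeR). DESeq2 called 1 gene of this list higher and 0 lower, so that Pdgfd did not pass there. Retinoid handling had 3 of 16 higher and 0 lower, namely Bco1, which cleaves carotene to retinal (0.89, adjusted p = 0.00371, edgeR), the retinal oxidising enzyme Aldh1a1 (1.15, adjusted p = 0.0159, edgeR) and Dhrs3, which returns retinal to retinol (0.59, adjusted p = 0.0160, edgeR).

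In contrast with Col4a1 and Col4a2, markers of macrophages were lower in BFMI than in B6N, 7 of 15 in edgeR with 0 higher. Of all genes tested 3.05% were lower. The list summed to 328.9 and 396.7 CPM in BFMI against 558.5 and 550.1 CPM in B6N. Of 14 markers of sinusoidal endothelium, whose cells also make type IV collagen, 1 passed, Lyve1, which was lower (-1.13, adjusted p = 0.0286, edgeR), and the list summed to 461.3 and 501.4 CPM in BFMI against 562.5 and 484.9 CPM in B6N. Red cell genes were higher for 4 of 6 and lower for 0. Of the cholangiocyte, portal fibroblast, hepatocyte and lymphocyte markers 0 passed between the strains in edgeR, and DESeq2 called 0, 0, 2 and 0. An unadjusted p under 0.05 in edgeR was found for 2 of 9, 1 of 11, 3 of 10 and 0 of 10. Of all genes tested 18.3% had such a p. The part of these cell types in the strain difference of Col4a1 and Col4a2 was not tested. In the fit of F1 males against the level of the inbred males, 5 of 15 macrophage markers were called, all lower. The retinol dehydrogenase Rdh11 was called higher (1.11, adjusted p = 0.0217, edgeR). It was at 145.4 to 239.9 CPM in the F1 males and at 87.7 and 89.6 CPM in the BFMI and B6N males. The BFMI female, at 188.8 CPM, lay within the F1 range, and the B6N female was at 121.2 CPM.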

How the data were processed

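Liver RNA of 10 mice was sequenced, and groups were taken from the sample records. The authors trimmed, aligned and counted reads per Ensembl gene (GRCm38, union mode) and deposited raw counts. They also deposited RPKM values from quantile-normalized data. Tools in the submitters' processing notes are Picard 1.99, Bowtie2 2.2.6, TopHat2 2.10 and Trimmomatic 0.32, whereas the paper gives BWA as the aligner. The protocol names removal of ribosomal RNA, but the molecule field reads polyA RNA. Both tables hold 3 columns with no sample record, which were not used. Of 41388 identifiers 40340 were matched to GENCODE M21.

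Raw counts were scaled by TMM and tested with the quasi-likelihood test of edgeR 4.0.16 (R 4.3.3), adjusted by Benjamini-Hochberg over all genes tested at a threshold of 0.05. The crosses were compared in the 6 F1 libraries (at least 10 counts in at least 3), the other contrasts in 1 fit of 10 libraries (at least 10 counts in at least 2) with a term for sex. Assigned reads per library give the depth, and the SD or the standard error gives the precision. CPM used these TMM factors, and log2 CPM a prior of 0.5. Members and lists were chosen with earlier results of these data known. Named genes are the 10 members, up to 4 genes with the smallest p among those called in each list and otherwise up to 2 of the highest CPM, and the 5 genes most like the fibrillar collagens. Alternatives were scaling by library size or DESeq2 size factors, DESeq2 1.42.0, limma 3.58.1 on log2 RPKM with pseudocounts of 1 and 0.1, no filter, other sets of libraries, no term for sex, the offspring number as a block, and leaving out each library. Transcripts were compared with BLAST 2.17.0 (at least 85% identity over 100 bases). The pipeline was tested on simulated data. Figures were drawn with Python 3.11.15 and matplotlib 3.10.9.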

Additional observations from a re-analysis of the deposited data

Results flagged for a closer look

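For 5 of 10 members the strain ratio in males and that in females were set apart by an unadjusted p under 0.05 for the difference itself, which 7.87% of all genes tested also had, and 0 passed the adjusted threshold. The difference of the log2 ratios of BFMI over B6N, males minus females, was 2.37 for Col1a1 (standard error 0.619, adjusted p = 0.353), 1.63 for Col1a2 (standard error 0.398, adjusted p = 0.314), 1.63 for Col3a1 (standard error 0.495, adjusted p = 0.465), 1.58 for Acta2 (standard error 0.577, adjusted p = 0.557) and 1.16 for Lum (standard error 0.357, adjusted p = 0.475), all from edgeR. Each term rests on 1 animal per strain and sex, its spread comes from the 6 F1 males, and the fit was added after the values had been seen. In each of these genes the BFMI male was the highest of the 10 libraries. In that library Spp1 and the summed contractile genes were also highest, and their part in these values was not tested.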

How the results depend on the processing

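In the comparison of the crosses 0 members passed under any alternative run, while the number of genes called, 24, became 56 with scaling by library size only, 696 without a filter on low counts, 305 with DESeq2, 2 with limma on RPKM at either pseudocount, 12 with all 10 libraries in the fit and 7 to 63 when 1 library was left out. It was 63 without patBFMI 2, 15 without matBFMI 1 or matBFMI 2, 14 without patBFMI 1, 11 without patBFMI 3 and 7 without matBFMI 3. With the offspring number as a replicate block 175 genes and 0 members were called. Animals with the same number had correlations of their deviations of 0.391, 0.00352 and 0.204 and are not said to share a litter, so that the numbers were not taken to pair them.

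Between the strains 2 members passed. The count was 4 without a filter and with the 4 inbred libraries only (Col1a1 and Col3a1 in addition), 1 with limma on RPKM at either pseudocount and 1 to 3 when 1 library was left out. It fell to 1 without matBFMI 2, the BFMI male or the B6N male. The genes called, 1332, became 364 and 320 with limma on RPKM and 536 to 1523 with a library left out, namely 536 without the B6N male, 583 without the BFMI male, 794 without the B6N female and 799 without the BFMI female. In F1 against inbred animals 0 members passed, but 3 did without a filter (Col1a1, Col3a1 and Timp1), and 0 did with any library left out. The genes called, 410, became 1410 without a filter, 871 with DESeq2, 264 and 42 with limma on RPKM, 958 without the term for sex and 13 to 937 with a library left out, namely 13 without the BFMI male, 182, 201 and 259 without matBFMI 2, 3 and 1, 200 without the B6N male, 226 without patBFMI 3 and 937 without patBFMI 1. Between the sexes 0 members passed, but 2 did without a filter (Col1a1 and Acta2), 1 with the inbred libraries only (Acta2) and 0 with any library left out. The genes called, 111, became 582 without a filter, 384 with DESeq2, 40 and 34 with limma on RPKM, 419 with the inbred libraries only and 38 to 156 with a library left out, namely 38 and 41 without the B6N female and male and 70 to 72 without any 1 matBFMI male. Dropping an inbred animal leaves 1 animal of its strain, which is assumed to vary like the other groups. With the term for sex, dropping either male reduces the strain contrast to the females, and dropping either female reduces it to the males. The sex contrast then rests on the other strain alone. A fit of the inbred libraries only takes its spread mostly from other genes. The cause of these shifts was not tested.

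Signs that changed belong to values that did not pass. With 1 library left out, the log2 fold change between the crosses ran from -0.0081 to 0.31 for Col3a1, -0.21 to 0.0061 for Col4a1 and -0.024 to 0.13 for Col4a2. Between the strains it ran from -0.15 to 2.22 for Col1a1, -0.54 to 1.09 for Col1a2, -0.14 to 1.498 for Col3a1, -0.47 to 1.10 for Acta2, -1.495 to 2.75 for Timp1 and -0.42 to 0.75 for Lum. The ends of these ranges came from runs without an inbred animal, which compare the strains in 1 sex only. Between F1 and inbred animals it ran from -1.66 to 0.69 for Col1a1, -0.96 to 0.64 for Col1a2, -1.32 to 0.29 for Col3a1, -0.19 to 0.36 for Col4a1, -0.28 to 0.26 for Col4a2, -1.21 to 0.34 for Acta2, -0.96 to 0.17 for Lum, -0.10 to 0.47 for Des and -0.082 to 0.35 for Lrat. With limma on RPKM it was -0.026 and -0.020 for Col4a1, -0.40 and -0.82 for Des and -0.014 and -0.019 for Lrat at pseudocounts of 1 and 0.1, and without the term for sex 0.11 for Col4a2 and -0.030 for Lrat. Between the sexes it ran from -1.90 to 0.47 for Col1a1, -1.16 to 0.47 for Col1a2, -1.29 to 0.34 for Col3a1, -0.38 to 0.20 for Col4a1, -0.51 to 0.051 for Col4a2, -2.20 to 2.04 for Timp1, -0.59 to 0.57 for Lum and -0.28 to 0.31 for Des, which was -0.059 without a filter and -0.021 and -0.059 with limma on RPKM. The share of Col4a2 differed between the crosses by 1.94 to 2.83 points. Depth limits Timp1, with 0 to 6 reads per F1 library, more than the other members.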
